A study of Mus musculus with 12 samples.

Results

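Brain tumours labelled IDH1_R132H were compared with brain tumours labelled PDGFA, 3 tumours against 3, across all genes of the raw count table that passed a filter on low counts. The 6 libraries were taken by the tumour genotype in their labels, out of 12 libraries in the series. The other 6 are 3 tumours labelled IDH1WT and 3 normal brains of TVA-negative mice, which entered the model to estimate the spread and are quoted as reference levels. All 12 are total RNA from formalin-fixed, paraffin-embedded mouse tissue. Both tumour groups arose in N::TVA mice homozygous for floxed alleles that include Cdkn2a and Atrx, so these alleles do not differ between them. TVA is the avian receptor through which RCAS viruses enter engineered mouse cells. The stated aim of the series was to assign a glioma subtype to the tumours. The labels give no age, sex, batch or litter, and they do not state whether the IDH1_R132H tumours carried PDGFA as well. They do not say that each library is a separate animal, so the p-values measure the spread between these libraries only.

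Isocitrate dehydrogenase 1 makes 2-oxoglutarate from isocitrate in the cytosol. The R132H form instead makes 2-hydroxyglutarate, which competes with 2-oxoglutarate at dioxygenases such as the TET enzymes. PDGFA is a secreted ligand of the receptor PDGFRA, which is carried in the brain by oligodendrocyte precursor cells, and signals through RAS and MAPK. In human diffuse glioma, tumours with IDH1 R132H contain cells that resemble the oligodendrocyte and astrocyte lineages.

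Library depth was 6507923, 9132783 and 10019818 counts in IDH1_R132H tumours 1 to 3 and between 9996171 and 10520489 in the PDGFA tumours. Levels below are CPM, the count of a gene relative to the scaled library total, after scaling with TMM, a method that sets the typical gene to no change. A pair of libraries stood apart. Loci resembling ribosomal RNA took 46.1% of the count in IDH1_R132H tumour 3 and 2.9% to 19.5% in the other 5 libraries compared. On the first principal component, PDGFA tumour 1 had a score of 45.5, within the 42.3 to 45.8 of the normal brains, while PDGFA tumours 2 and 3 had 2.81 and -34.0 and the IDH1_R132H tumours -33.8 to -24.3. Xist stood at 1940 CPM with Y-linked transcripts at 0 or near it in IDH1_R132H tumour 2, and the other 5 tumours carried Y-linked transcripts, so this pattern was present in 1 of 3 IDH1_R132H and 0 of 3 PDGFA tumours.

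The genes named in the genotypes were measured first. Idh1 (chromosome 1, 65158616 to 65186500, GRCm38) had 22.2, 36.2 and 46.7 CPM across PDGFA tumours 1 to 3, and 53.7, 52.2 and 70.7 CPM across IDH1_R132H tumours 1 to 3. Every IDH1_R132H tumour was above every PDGFA tumour, with means of 58.8 ± 10.2 and 35 ± 12.3 CPM (SD, n = 3 each). The log2 fold change was 0.74, with SE 0.24 and an adjusted p of 0.359 by edgeR, and 0.49 without PDGFA tumour 1. Reads of an introduced cDNA were not told apart from the endogenous gene, and the mutant base cannot be seen in gene counts. Idh2, the mitochondrial NADP-dependent isoform, had 20.3 ± 4.02 CPM in the IDH1_R132H tumours and 22.8 ± 7.28 in the PDGFA tumours, and its groups overlapped.

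Pdgfa (chromosome 5, 138976014 to 138997370) did not separate the groups that its label names. PDGFA tumours 1 to 3 had 57.1, 40.4 and 96.7 CPM and the IDH1_R132H tumours 42.4 to 53.5 CPM. The lowest of the 6 values was in PDGFA tumour 2, and the log2 fold change was -0.42 (95% interval -1.03 to 0.19). Normal brain had 28.1 to 30.5 CPM of Pdgfa, below every tumour, and the IDH1WT tumours had 44.3, 78.7 and 58.9 CPM. As for Idh1, reads of any introduced cDNA were not told apart from the endogenous gene. In raw counts Cdkn2a had 14, 1 and 5 in the IDH1_R132H tumours and 2, 0 and 11 in the PDGFA tumours, too few to test. Atrx had 263 ± 6.56 CPM against 291 ± 6.83, a log2 fold change of -0.15 (SE 0.16). Both are counts over whole genes, in which floxed exons were not counted separately, so they check little about deletion.

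**Figure D1:**
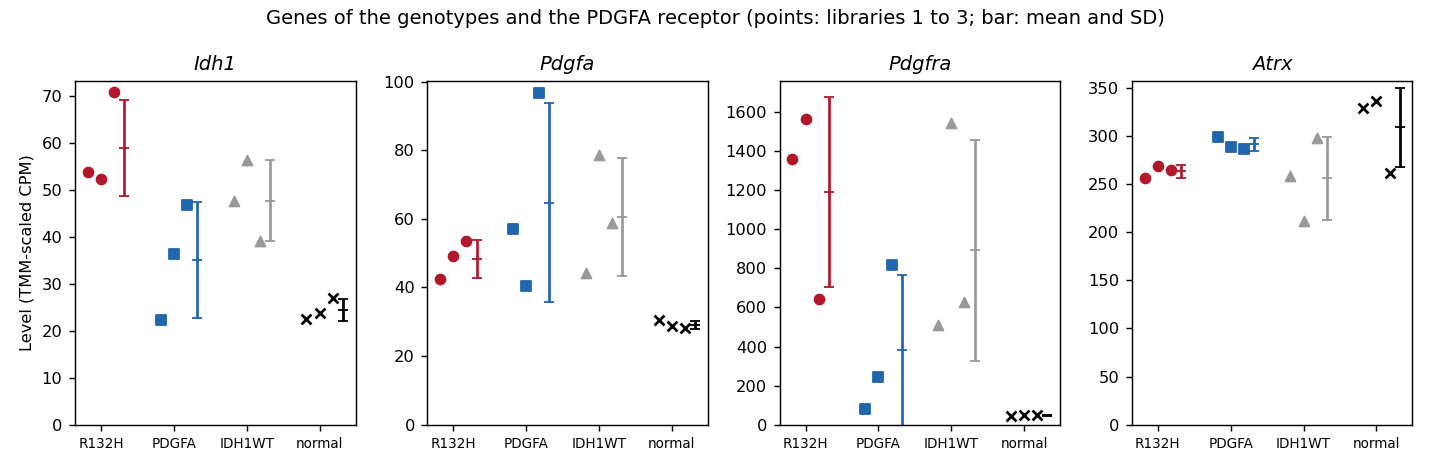
Levels (TMM-scaled CPM, linear axes from 0) of Idh1, Pdgfa, Pdgfra and Atrx in every library, by group, with the mean and SD of 3 libraries as a bar beside the points. Idh1 lies between 52.2 and 70.7 CPM in the IDH1_R132H tumours and between 22.2 and 46.7 in the PDGFA tumours, while Pdgfa and Pdgfra overlap between these groups.

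Across the 17812 genes tested, edgeR called none at an adjusted p under 0.05, that is 0% of genes, and the smallest adjusted p was 0.223. At an unadjusted p under 0.05 there were 1940 genes (10.9%), 896 with a higher level in the IDH1_R132H tumours (5.03%) and 1044 with a lower one (5.86%). The 3 values of each group did not overlap for 2334 genes (13.1%), 1043 higher in IDH1_R132H (5.86%) and 1291 lower (7.25%). The median log2 fold change was -0.01 and its median standard error 0.286. A log2 difference of at least 1 was estimated for 1155 genes, 706 higher and 449 lower in the IDH1_R132H tumours.

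Other tools gave other counts on the same libraries. DESeq2 called 146 genes (0.82%), 70 higher (0.393%) and 76 lower (0.427%), and limma voom with a weight for each library called 396. All 146 DESeq2 genes had an edgeR unadjusted p under 0.05, 140 had groups that did not overlap, and 106 were also called by voom. Leaving out PDGFA tumour 3 raised the edgeR calls to 43, 26 higher and 17 lower, and the genes at an unadjusted p under 0.05 to 3551. Leaving out PDGFA tumour 1 gave 1 call, Rps3a3, which has near-identical copies in the genome and is uncertain, and 1363 genes at an unadjusted p under 0.05. Within the same fit, 1278 genes (7.17%) were called between IDH1_R132H tumours and normal brain and 54 (0.303%) between PDGFA tumours and normal brain.

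**Figure D2:**
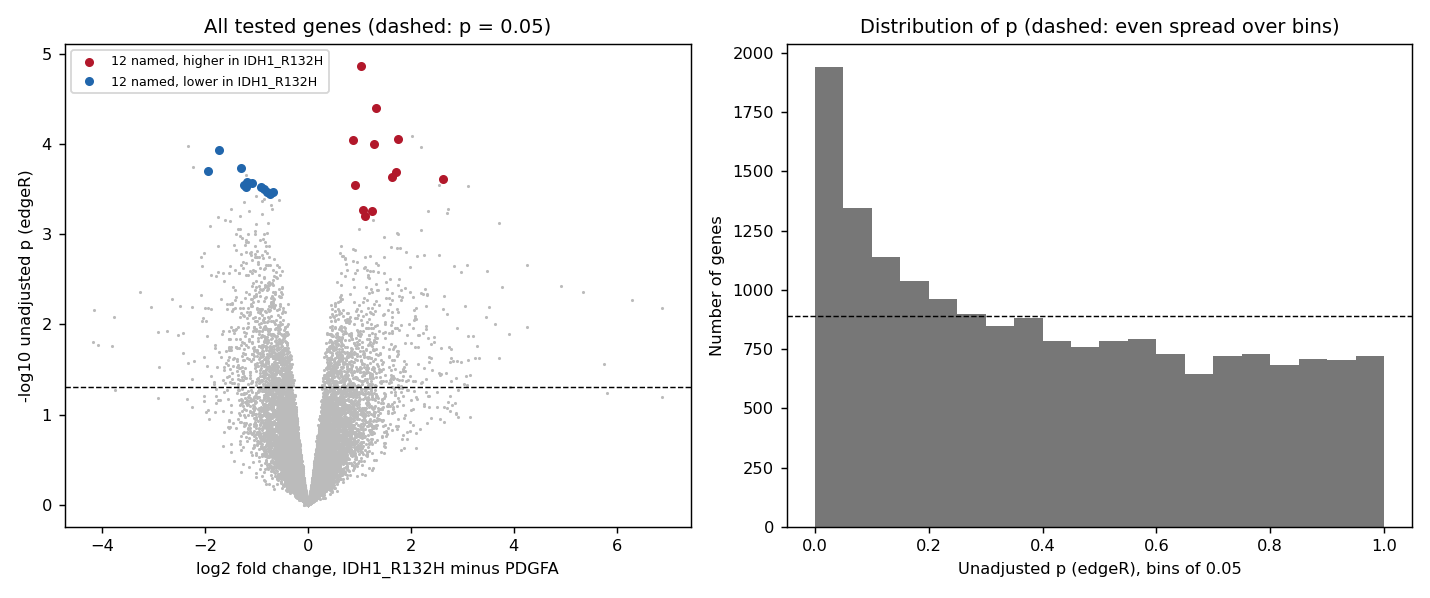
Left: log2 fold change of IDH1_R132H minus PDGFA against −log10 of the unadjusted edgeR p for each of 17812 genes, with 12 named genes on each side in colour. Right: number of genes per bin of unadjusted p, each 0.05 wide, of which the first holds 1940 genes, with a dashed line at an even spread over the bins.

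Since no gene was called, 12 genes in each direction with the smallest p are described as values, among genes with a mean log2 CPM of at least 3 and groups that did not overlap (599 eligible higher and 746 lower). Their p-values chose them and are not further evidence. All 24 were called by DESeq2 and kept their direction and an unadjusted p under 0.05 in each of 16 alternative analyses, including without PDGFA tumour 1, without IDH1_R132H tumour 3 and without both. The alternatives reused the same libraries, and a choice by small p and separate groups favours this outcome, so it is not independent support.

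The 12 genes with higher levels in the IDH1_R132H tumours were Gfra2, Epas1, Prss23, Tmem132d, Ltbp1, Lbh, Stk32b, Meox1, Sccpdh, Mylk, Cnn2 and Prex1. Meox1, a homeobox transcription factor of somite development, had the largest ratio among them. It had 50.6, 54.1 and 34.5 CPM in IDH1_R132H tumours 1 to 3 against 3.69, 4.06 and 14.9 CPM in PDGFA tumours 1 to 3, a log2 fold change of 2.62 with SE 0.52, and an adjusted p of 0.223 by edgeR. The normal brains had at most 0.875 CPM of Meox1, so both tumour groups were above them, with PDGFA tumour 3 the nearest of its group to the IDH1_R132H range. The IDH1WT tumours had 15.1, 34.8 and 12 CPM of Meox1, overlapping both groups. Epas1 (chromosome 17, 86753700 to 86833410) encodes the hypoxia-inducible factor HIF-2 alpha. Its level was 395, 356 and 287 CPM against 110, 134 and 171 CPM, and the PDGFA values surrounded those of normal brain (134 to 140 CPM). The IDH1WT tumours had 254, 358 and 229 CPM of Epas1, overlapping the IDH1_R132H tumours and above the PDGFA tumours. The log2 fold change of Epas1 was 1.32 (SE 0.21).

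Gfra2, a co-receptor for neurturin, had the smallest p of all genes. Its level was 63.9, 65.7 and 53.9 CPM in the IDH1_R132H tumours and 34.8, 28.6 and 26.6 CPM in the PDGFA tumours, a log2 fold change of 1.03 (SE 0.15). Gfra2 in the IDH1WT tumours (34.7 to 41.7 CPM) and the normal brains (36 to 37.9 CPM) lay below all 3 IDH1_R132H tumours. Lbh, a transcription cofactor, had 247, 302 and 147 CPM against 46.5, 71.5 and 94.5 CPM, with normal brain at 40.8 to 45.7 CPM. Lbh in the IDH1WT tumours was 112, 215 and 110 CPM, overlapping the IDH1_R132H tumours and above the PDGFA tumours. Prss23, a secreted serine protease, had 29.3 ± 4.54 CPM against 8.69 ± 0.95 CPM, and Prex1, an exchange factor for the GTPase RAC, 309 ± 44.8 CPM against 145 ± 45.7 CPM. Among genes of the cytoskeleton and matrix, Mylk (myosin light chain kinase), Cnn2 (a calponin) and Ltbp1 (which binds latent TGF-beta) had log2 fold changes of 1.06, 1.24 and 1.28.

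The 12 genes with lower levels were Otof, BC030499, Hapln2, Dennd6b, Hexdc, Lrrc45, Mdga1, Vwa5b2, Clcn2, Plekha7, Cul9 and Bicdl1. Otof, which encodes the calcium sensor otoferlin, had 4.36, 5.29 and 6.32 CPM in the IDH1_R132H tumours and 21.1, 20 and 12 CPM in the PDGFA tumours, a log2 fold change of -1.74 (SE 0.32). Hapln2, a link protein of the matrix at nodes of Ranvier in myelinated tracts, had 7.22, 5.8 and 4.14 CPM against 34.5, 15.1 and 17.5 CPM. The highest Hapln2 value was in PDGFA tumour 1, but PDGFA tumours 2 and 3 were also above every IDH1_R132H tumour. The log2 fold change of Hapln2 was -1.95 (SE 0.38), the largest in size among the 12. For Clcn2, a chloride channel, the levels were 21.3 ± 1.6 CPM against 38.7 ± 3.36 CPM, and for Mdga1, an adhesion molecule of synapses, 18.1 ± 0.423 CPM against 34.1 ± 9.49 CPM.

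The IDH1WT mean lay between the IDH1_R132H and PDGFA means for 24 of these 24 genes, and for 45.9% of all genes tested. Genes chosen for a gap between the outer groups favour that order. No gene was called between IDH1_R132H and IDH1WT tumours (475 genes, 2.67%, at an unadjusted p under 0.05) or between IDH1WT and PDGFA tumours (1038 genes, 5.83%), by edgeR in the same fit. The normal brains lay outside the IDH1_R132H range for 24 of 24 genes. The share over all genes was not counted, so this number describes the chosen genes only.

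**Figure D3:**
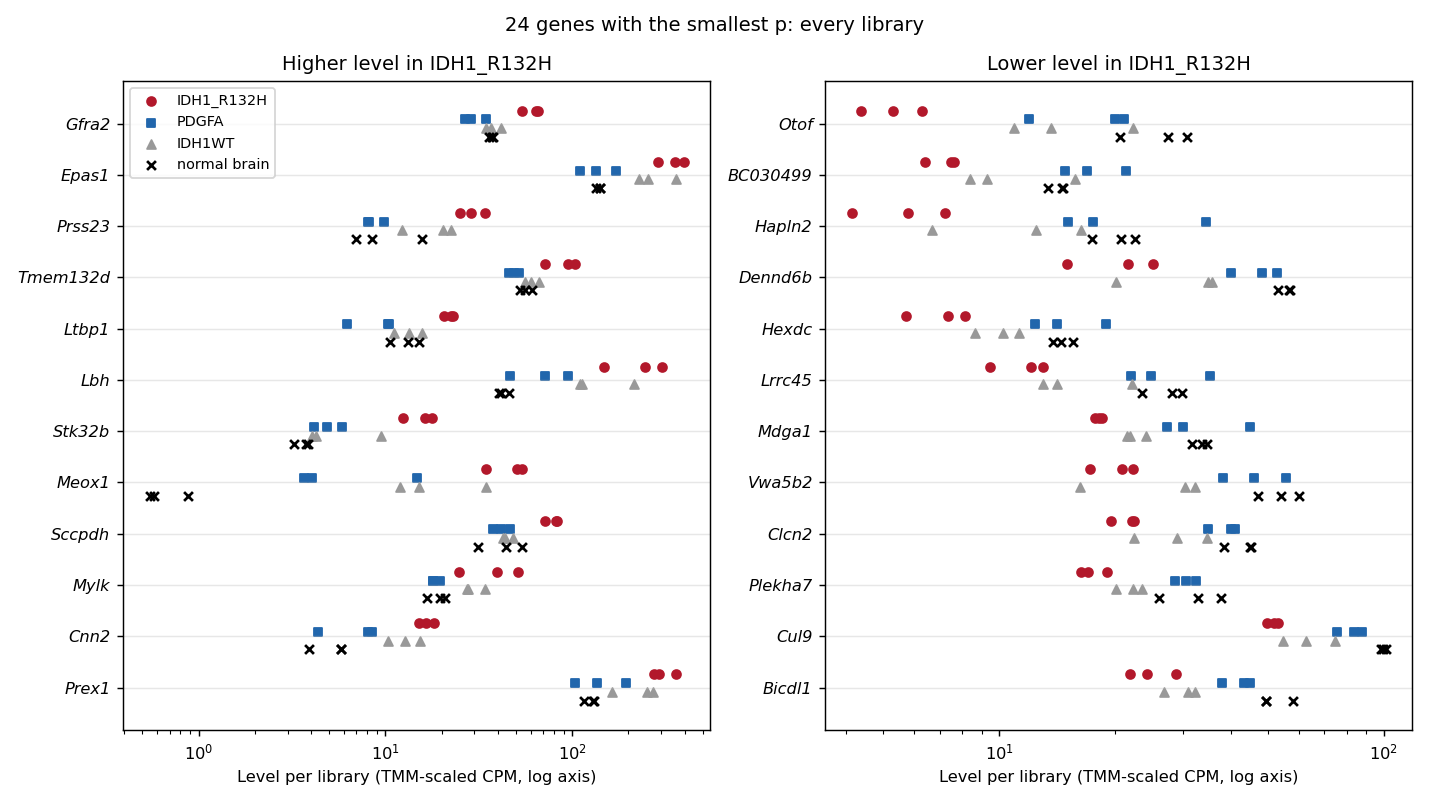
Levels (TMM-scaled CPM, log axes) of the 24 named genes in all 12 libraries, 1 point per library, by group. In every row the 3 IDH1_R132H tumours lie to one side of the 3 PDGFA tumours, as for Meox1 with 34.5 to 54.1 CPM against 3.69 to 14.9 CPM.

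Gene lists for cell types and pathways, chosen with earlier results of these data known, were used to describe the groups. Each list is described by how many tested members had an unadjusted p under 0.05 in each direction, against 5.03% and 5.86% of all genes, and by its median log2 fold change, against -0.01 over all genes. No member of any list was called by edgeR. In bulk tissue, fewer cells of a type and less RNA per cell cannot be told apart.

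Oligodendrocyte precursor markers had the highest median of the 38 lists with all 6 tumours, and the third highest, after T cell and choroid plexus genes (1.12 and 1.06), without PDGFA tumour 1. All 17 had a positive log2 fold change, with a median of 1.28, and 8 of 17 had an unadjusted p under 0.05, all higher in the IDH1_R132H tumours. Pdgfra (chromosome 5, 75152292 to 75198215), the receptor for PDGFA, had 1360, 1564 and 643 CPM in IDH1_R132H tumours 1 to 3 and 81.2, 247 and 814 CPM in PDGFA tumours 1 to 3. The PDGFA tumours thus ran from near the normal brains (46.9 to 49.8 CPM) to above the lowest IDH1_R132H tumour. The IDH1WT tumours had 510, 1540 and 626 CPM of Pdgfra, overlapping both groups. For Pdgfra the log2 fold change was 1.64 with SE 0.66 and an adjusted p of 0.415 by edgeR, and 1.15 without PDGFA tumour 1.

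C1ql1, a secreted C1q-like protein and the list's smallest p, had 42.9, 75.3 and 23.5 CPM against 5.03, 9.45 and 16.3 CPM. It was the only member whose groups did not overlap, and its log2 fold change of 2.20 (SE 0.51) became 1.88 without PDGFA tumour 1. Tnr, the matrix protein tenascin-R, had 1664, 1756 and 811 CPM against 235, 375 and 856 CPM, so that PDGFA tumour 3 exceeded IDH1_R132H tumour 3. The lineage transcription factors Olig2 and Sox10 had 150 ± 32.5 and 161 ± 28 CPM in the IDH1_R132H tumours against 82.2 ± 66.4 and 80.6 ± 63.4 CPM in the PDGFA tumours, with log2 fold changes of 0.87 (SE 0.50) and 1.0 (SE 0.47), or 0.44 and 0.65 without PDGFA tumour 1. Cspg4, the proteoglycan NG2, had 446 ± 178 CPM against 182 ± 182 CPM. PDGFA tumour 1 was the lowest of the 6 libraries for 16 of the 17 markers and IDH1_R132H tumour 2 the highest for all 17. Over all genes PDGFA tumour 1 was the lowest for 26.5% and IDH1_R132H tumour 2 the highest for 11.8%. Without PDGFA tumour 1 the median was 0.84 and 3 of 17 had an unadjusted p under 0.05. Without IDH1_R132H tumour 3 as well, the median was 1.15 and the number 11 of 17. Against the IDH1WT tumours, with no library left out, the median log2 fold change of the list was 0.42.

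Myelin genes, which mark mature oligodendrocytes, had the opposite sign. Of 14 tested, 10 had an unadjusted p under 0.05, all with a lower level in the IDH1_R132H tumours, and the median log2 fold change was -1.06. Mobp had 238, 300 and 371 CPM against 1695, 823 and 541 CPM. Mbp, myelin basic protein, had 1068, 1298 and 1343 CPM against 5923, 2877 and 1395 CPM. In both genes PDGFA tumour 1 was highest, and PDGFA tumour 3 was the lowest of its group but above every IDH1_R132H tumour. Mal, a proteolipid of compact myelin, had 61.9, 69 and 101 CPM against 248, 253 and 124 CPM. The log2 fold changes were -1.75 (SE 0.39) for Mobp, -1.46 (SE 0.41) for Mbp and -1.43 (SE 0.35) for Mal, with edgeR adjusted p of 0.246 to 0.318 and DESeq2 adjusted p of 0.00413 to 0.0388. Normal brain had 398 to 404 CPM of Mobp and 1681 to 1796 of Mbp, so PDGFA tumours 1 and 2 were above normal brain and the IDH1_R132H tumours below it. PDGFA tumour 3 was above normal brain for Mobp and below it for Mbp. Without PDGFA tumour 1 the median was -0.72, 4 of 14 had an unadjusted p under 0.05, and the log2 fold changes were -1.18 for Mobp, -0.80 for Mbp and -1.30 for Mal. The summed myelin markers were 4036, 2594 and 4042 CPM in the IDH1WT tumours, against 2574 to 3209 CPM in the IDH1_R132H tumours. For IDH1_R132H minus IDH1WT, with no library left out, the median log2 fold change of the list was -0.26.

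**Figure D4:**
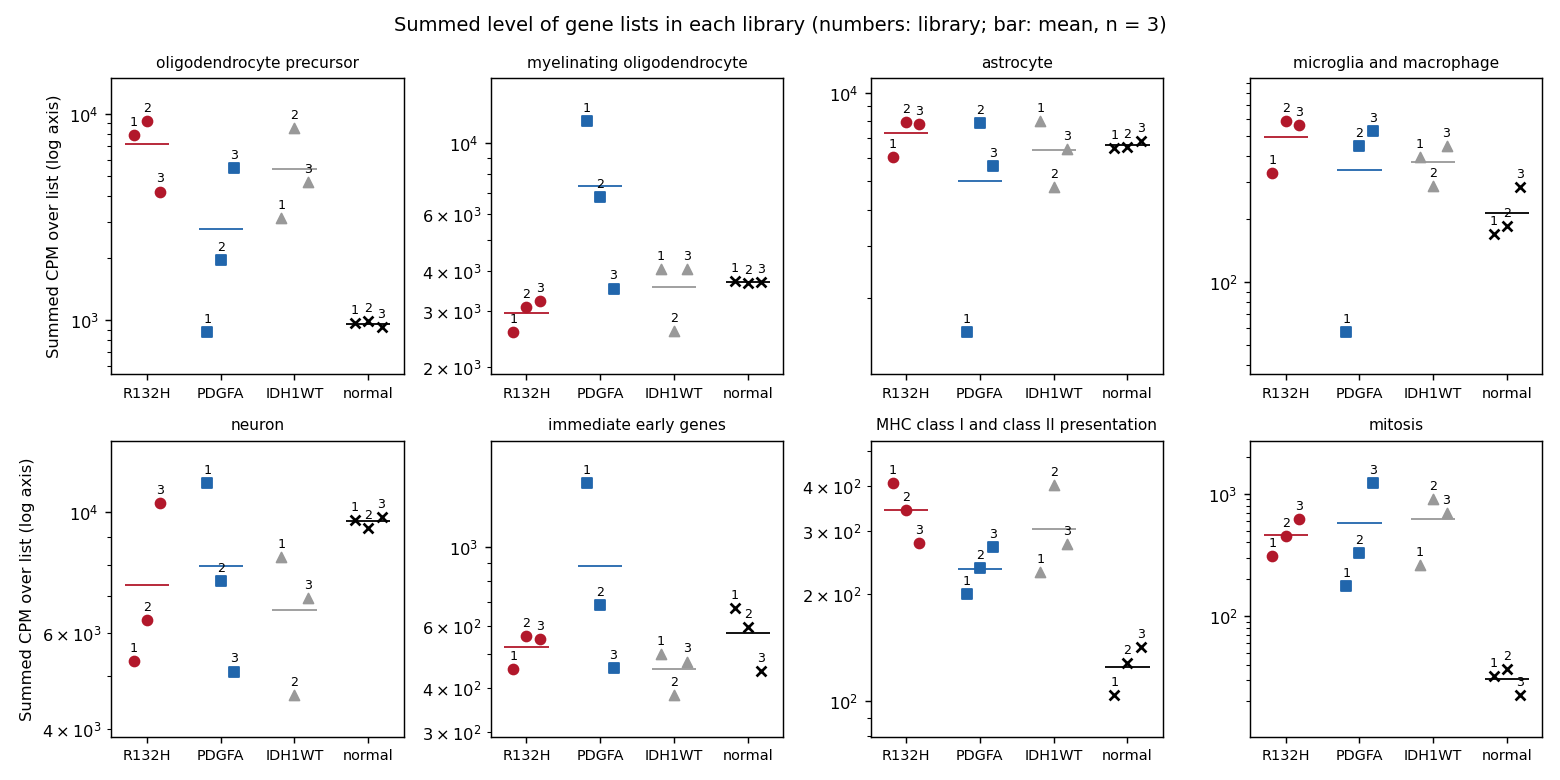
Summed level (TMM-scaled CPM, log axes that do not start at 0) of 8 gene lists in each of the 12 libraries, numbered by library, with the mean of each group as a line. PDGFA tumour 1 has the lowest sum of the 12 for oligodendrocyte precursor (880.4), astrocyte (1532) and microglia (57.7) markers and the highest for myelin (11765) and immediate early genes (1515).

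Of 15 antigen presentation genes tested, 5 had an unadjusted p under 0.05, all with a higher level in the IDH1_R132H tumours, and 4 of 15 without PDGFA tumour 1. The median log2 fold change was 0.52, or 0.48 without that tumour. IDH1_R132H tumour 1 was the highest of the 6 for 13 of 15 genes and PDGFA tumour 1 the lowest for 10 of 15. The MHC class II genes H2-Aa and H2-Ab1 had 16.2, 13.9 and 9.08 CPM and 13.9, 9.67 and 8.68 CPM in the IDH1_R132H tumours. In the PDGFA tumours H2-Aa had 3.69, 4.14 and 4.08 CPM and H2-Ab1 2.12, 3.98 and 3.26 CPM, with no overlap for either gene. Their log2 fold changes were 1.72 (SE 0.40) and 1.77 (SE 0.49). Cd74, the invariant chain that escorts class II molecules, had 16.8 ± 6.4 CPM against 6.03 ± 1.76, and B2m, the light chain of class I, 86.3 ± 8.35 against 48 ± 17.1. H2-Aa, H2-Ab1 and Cd74 were also high in IDH1WT tumour 2 (21.6, 14.3 and 34 CPM). Markers of microglia and macrophages, cells that carry class II, were counted beside them. Of 22, 1 (Ccr2, at most 2.2 CPM in any library) had an unadjusted p under 0.05, and the list's median of 0.54 became 0.03 without PDGFA tumour 1. Their summed level was 333 to 592 CPM in the IDH1_R132H tumours and 57.7, 445.8 and 529 CPM in the PDGFA tumours, and their part in the class II levels was not tested.

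Astrocyte markers were low in a single tumour. PDGFA tumour 1 was the lowest of the 6 for 18 of 18 markers, and the list's median moved from 0.36 to -0.15 without it. Gfap, the astrocyte intermediate filament, had 283, 585 and 744 CPM against 68, 676 and 540 CPM, and its log2 fold change of 0.33 (SE 0.62) became -0.19 without PDGFA tumour 1. S100b was the only astrocyte marker with an unadjusted p under 0.05. It had 160, 145 and 99.1 CPM against 60.9, 73.8 and 69.8 CPM, a log2 fold change of 0.98 (SE 0.23), or 0.90 without PDGFA tumour 1. The IDH1WT tumours had 122, 171 and 120 CPM of S100b and the normal brains 102 to 153 CPM, so the PDGFA tumours were the low group. Neuronal markers had no member of 20 at an unadjusted p under 0.05, and without PDGFA tumour 1 their median went from -0.22 to 0.17 with 2 of 20 higher. The neuronal median was -0.59 without IDH1_R132H tumour 3 and -0.14 without both libraries.

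PDGF signalling was next examined through its ligands, receptors and feedback inhibitors. Of 7 PDGF genes, 3 had an unadjusted p under 0.05, all higher in the IDH1_R132H tumours, namely Pdgfra, the ligand Pdgfc and Pdgfrl. Without PDGFA tumour 1 this was 1 of 7, Pdgfc, with an unadjusted p of 0.0484 by edgeR. Of 17 inhibitors and targets of MAPK feedback, 4 did, all higher, with a median log2 fold change of 0.47, or 0.31 without PDGFA tumour 1. These were Spred1, Spred2, Spred3 and Spry1, which restrain RAS and RAF signalling. The number was 2 of 17 (Spred2 and Dusp5) without PDGFA tumour 1, and without IDH1_R132H tumour 3 as well 0 of 17. Spred2 had 89.5, 104 and 145 CPM against 72, 80.7 and 68.6 CPM, and Spred3 77.8, 80.2 and 63.7 CPM against 33.2, 47.5 and 59.2 CPM. Neither overlapped, and their log2 fold changes were 0.61 (SE 0.18) and 0.66 (SE 0.25). Spry1 had 67.7, 89.4 and 45.4 CPM against 13.8, 23.9 and 63.4 CPM, where PDGFA tumour 3 reached into the IDH1_R132H range.

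In the Notch pathway 5 of 18 genes had an unadjusted p under 0.05 with a higher level and 1 with a lower level in the IDH1_R132H tumours. Without PDGFA tumour 1, 2 of 18 were higher (Heyl and Hey1) and 0 lower, and the median log2 fold change went from 0.38 to 0.16. With all 6 tumours the target genes Heyl, Hes5, Hey1 and Hes1 and the ligand Jag1 were on the higher side, and the ligand Jag2 on the lower. Heyl had 9.95, 17 and 11.6 CPM against 4.92, 4.48 and 6.8 CPM, a log2 fold change of 1.26 (SE 0.28). Jag2 had 16.2, 19 and 17 CPM against 32.9, 27.1 and 20.4 CPM, a log2 fold change of -0.62 (SE 0.22). In cholesterol and lipid synthesis 5 of 19 genes had an unadjusted p under 0.05, all higher, and 5 of 19 did so without PDGFA tumour 1. Without IDH1_R132H tumour 3, the highest of the 6 for 11 of 19, the median log2 fold change went from 0.20 to 0.071, and without both libraries 2 of 19 had an unadjusted p under 0.05. Scd1 and Scd2, the desaturases that make oleate, had 302 ± 37.7 and 1883 ± 143 CPM against 203 ± 20.3 and 1211 ± 304 CPM.

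Genes tied to 2-oxoglutarate and to mutant IDH1 showed few differences at an unadjusted p under 0.05. Among 14 TET and DNA methylation genes none had an unadjusted p under 0.05, and the median log2 fold change was -0.04. Tet1 had 87.7 ± 10.2 CPM against 66.2 ± 9.65, and Dnmt3a 195 ± 36.7 against 247 ± 17.7. Among 25 other 2-oxoglutarate dioxygenases 1 was on each side, both of them prolyl hydroxylases that mark HIF for decay. Egln2 had 34.2, 36.8 and 37.1 CPM against 47.6, 57.9 and 47.9 CPM, and Egln3, itself induced by HIF, 12.3, 19.5 and 24.3 CPM against 7.6, 11.6 and 12.1 CPM. Their log2 fold changes were -0.51 (SE 0.14) and 0.83 (SE 0.28). Groups did not overlap for 5 of these 25 dioxygenases on the lower side and 1 on the higher. Among the 14 TET and DNA methylation genes it was 1 on each side. The shares over all genes were 7.25% lower and 5.86% higher. Of 22 hypoxia and glycolysis genes 3 were higher at an unadjusted p under 0.05, namely Epas1, Hif1a and Egln3, and 2 were lower, Ndrg1 and Gapdh, whose pseudogene copies make its count uncertain. The median of this list was 0.15, and -0.17 without IDH1_R132H tumour 3, the highest of the 6 for 13 of 22. Hif1a had 130 ± 6.2 CPM against 96.8 ± 14, and Ndrg1, a HIF target that is also a gene of myelinating glia, 37.3 ± 3.3 against 67.9 ± 20.8. Among 24 genes of isocitrate dehydrogenases and the TCA cycle only Idh1 had an unadjusted p under 0.05. Of 15 genes described as low in human IDH-mutant glioma, 14 had a positive log2 fold change here, with a median of 0.32, or 0.10 without PDGFA tumour 1, and 1 (G0s2) had an unadjusted p under 0.05. Without that tumour 0 were higher and 1 lower at that level.

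The glioma subtype lists, which address the aim of the series, were counted in the same way. Of 25 proneural genes 6 had an unadjusted p under 0.05, all higher in the IDH1_R132H tumours, with a median log2 fold change of 0.42 that was 0.34 without PDGFA tumour 1, where 1 of 25 was under 0.05. The proneural genes with the smallest p were Erbb3, Sox8, Olig1 and Pdgfra, and the last 3 also belong to the precursor list. For classical, mesenchymal and neural genes the medians were 0.30, 0.27 and -0.30, and 0.04, -0.03 and 0.05 without that tumour. The neural median was -0.62 without IDH1_R132H tumour 3 and -0.26 without both libraries. Of 32 mesenchymal genes 1 was higher at an unadjusted p under 0.05 with PDGFA tumour 1, and 3 of 33 were lower without it. Cd44, a mesenchymal marker, had 41.5 ± 16.1 CPM against 33 ± 24.8, and Egfr, a classical one, 24.4 ± 1.7 against 23.2 ± 13.6. Both had a log2 fold change under 0 without PDGFA tumour 1.

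Of 20 collagen and matrix genes, 3 had an unadjusted p under 0.05 with a higher level and 1 with a lower level. Without PDGFA tumour 1 this was 1 and 1, with a median log2 fold change of 0.16 instead of 0.32, and without IDH1_R132H tumour 3 as well 0 and 2, with a median of -0.035. Bgn, the proteoglycan biglycan, had 21.8, 35.3 and 48.4 CPM in the IDH1_R132H tumours and 6.15, 15.8 and 20.8 CPM in the PDGFA tumours, with no overlap and a log2 fold change of 1.29 (SE 0.43). Other tumour and cell type genes overlapped between the groups, with log2 fold changes of 0.40 for Trp53, 0.20 for the RAS inhibitor Nf1, -0.36 for the neuronal Rbfox3, 0.03 for the microglial Aif1 and 0.22 for the endothelial Pecam1.

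Proliferation genes varied more within the PDGFA tumours than between the groups. Mki67, a marker of cycling cells, had 57, 95 and 131 CPM in the IDH1_R132H tumours and 65.4, 67.9 and 338 CPM in the PDGFA tumours, and Top2a, a topoisomerase of mitosis, 47.4, 69.5 and 85.7 CPM against 18.4, 41.9 and 152 CPM. PDGFA tumour 3 was the highest of the 6 for 22 of 22 mitosis genes. No mitosis or DNA replication gene had an unadjusted p under 0.05, and without PDGFA tumour 3 the log2 fold change of Top2a went from -0.07 to 1.15 and that of Mki67 from -0.74 to 0.49. The red cell genes depended on single tumours too. Of 6, 5 had an unadjusted p under 0.05 and a lower level in the IDH1_R132H tumours, but Hbb-bs had 235, 767 and 17.4 CPM in the PDGFA tumours against 33.2 to 77.5 CPM, so PDGFA tumour 3 was the lowest of the 6 and tumours 1 and 2 the highest.

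Immediate early genes are transcribed within minutes of a stimulus. Of 18 tested, 9 had an unadjusted p under 0.05, all with a lower level in the IDH1_R132H tumours, and 6 had groups that did not overlap. Over all genes, 5.86% were lower at that p and 7.25% were lower without overlap. The median log2 fold change was -0.80, and -0.30 with 4 of 18 under 0.05 without PDGFA tumour 1, which was the highest of the 6 for 15 of 18. The summed level was 453, 562 and 550 CPM in the IDH1_R132H tumours and 1515, 686 and 454 CPM in the PDGFA tumours, so PDGFA tumour 3 was near the lowest IDH1_R132H tumour. Fos, a subunit of AP-1, had 24.1, 22.4 and 21.7 CPM against 120, 35.1 and 34.3 CPM. Nr4a3 and Nr4a2, orphan nuclear receptors, had 21.8 ± 1.26 and 12.6 ± 3.17 CPM against 37.9 ± 6.29 and 27.6 ± 11.6 CPM. Dusp1, a phosphatase of MAP kinases, had 14, 13.7 and 12.2 CPM against 54.1, 26.9 and 18.9 CPM. In each of these genes all PDGFA tumours were above all IDH1_R132H tumours. The log2 fold changes were -1.47 (SE 0.46) for Fos, -0.80 (SE 0.19) for Nr4a3, -1.15 (SE 0.33) for Nr4a2 and -1.31 (SE 0.40) for Dusp1, with edgeR adjusted p of 0.275 to 0.337. They were, without PDGFA tumour 1, -0.62 for Fos, -0.73 for Nr4a3, -0.81 for Nr4a2 and -0.79 for Dusp1. The IDH1WT tumours had 16 to 19.7 CPM of Nr4a3 and 19.8 to 28 CPM of Fos, near the IDH1_R132H values.

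Immediate early genes are known targets of the factors CREB and SRF, and the 250 bases before the RefSeq start (GRCm38.p6) were searched for 3 motifs on both strands. RefSeq windows matched 14 of the 18 genes and 11897 of the genes tested. Egr1, Egr3, Arc and Ier2 had no window, so their promoters were not searched. The full site TGACGTCA was found in 2 of 14 (14.3%) against 2.96% of tested genes, its shorter form TGACG, which overlaps it, in 12 of 14 (85.7%) against 29.2%, and the CArG box of serum response factor (SRF) in 1 of 14 (7.14%) against 1.34%. The search was chosen after the values of these genes had been seen, and a match is a description of the sequence only. The windows with the full site are those of Dusp1 (chr17:26508473-26508722, minus strand) and Btg2 (chr1:134079156-134079405, minus strand), an antiproliferative gene with 13.4, 16.4 and 14.4 CPM against 58.7, 30.4 and 16 CPM, which overlapped. They are shown 5′ to 3′ with the site in capitals.
Dusp1: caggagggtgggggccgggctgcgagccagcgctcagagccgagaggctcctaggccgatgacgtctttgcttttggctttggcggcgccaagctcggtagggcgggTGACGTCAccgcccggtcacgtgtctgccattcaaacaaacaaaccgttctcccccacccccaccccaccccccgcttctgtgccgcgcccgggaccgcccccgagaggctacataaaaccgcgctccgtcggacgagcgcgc
Btg2: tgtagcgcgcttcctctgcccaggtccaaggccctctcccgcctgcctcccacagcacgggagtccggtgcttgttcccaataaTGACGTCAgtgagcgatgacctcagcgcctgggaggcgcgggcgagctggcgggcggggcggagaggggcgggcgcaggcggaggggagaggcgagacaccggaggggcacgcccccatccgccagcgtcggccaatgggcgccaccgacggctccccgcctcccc

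**Figure D5:**
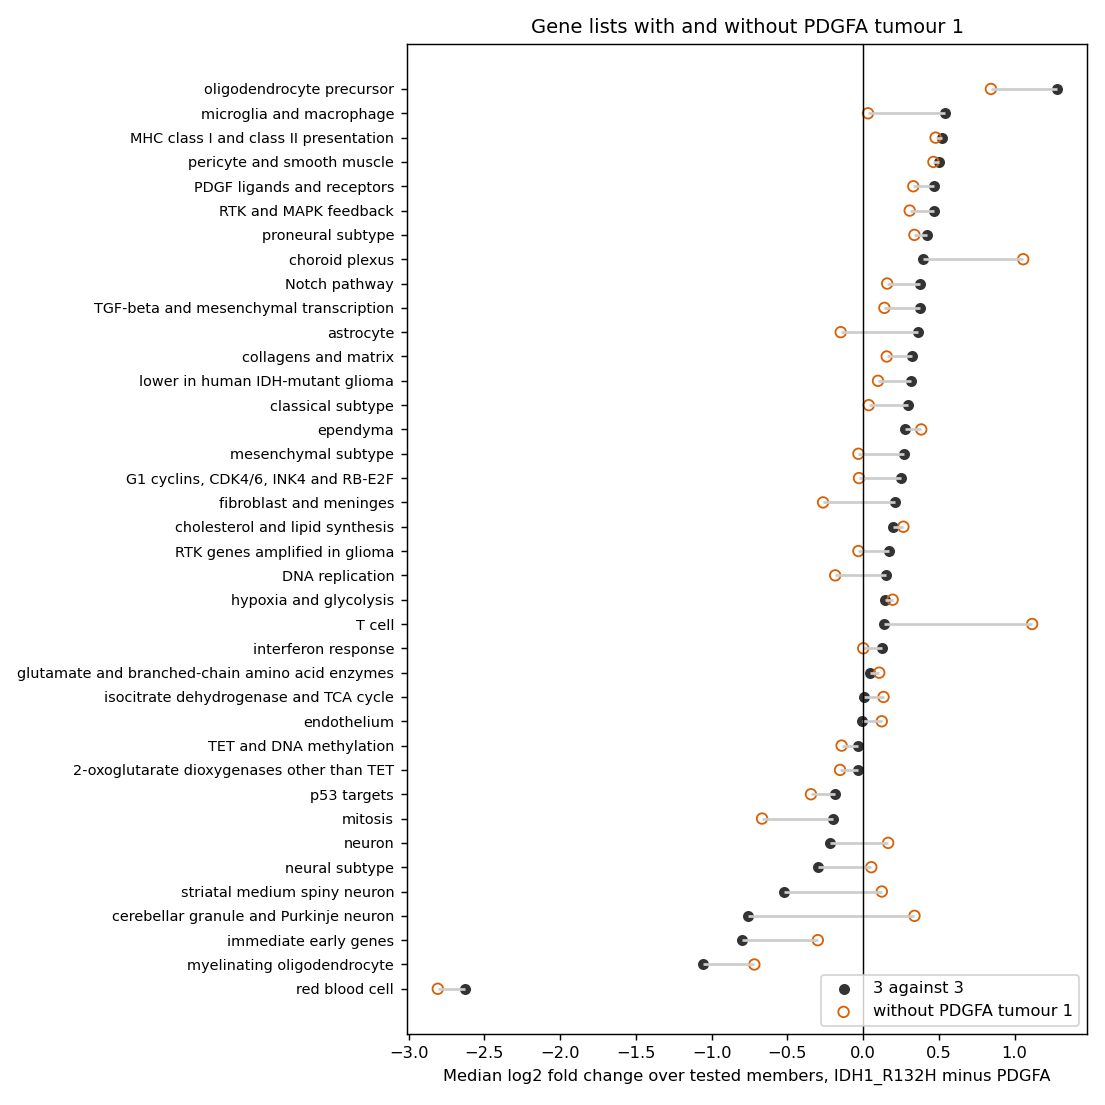
Median log2 fold change (IDH1_R132H minus PDGFA) over the tested members of each of 38 gene lists, with all 6 tumours (filled) and without PDGFA tumour 1 (open). Precursor markers stay on the higher side (1.28 and 0.84) and myelin genes on the lower (-1.06 and -0.72), while astrocyte markers (0.36 and -0.15) and neuronal markers (-0.22 and 0.17) cross 0.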

How the data were processed

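Per the labels' protocols, RNA was isolated from fixed tissue by the RecoverAll kit. The authors deposited raw counts per gene for 49671 Ensembl genes and a second table of log2 values, rlog by the table's own name, which served here only as an alternative. The submitters' processing notes name the build GRCm38 and the tools STAR (2.5.2b), featureCounts of Subread (1.5.1) and DESeq2 (1.16.1). Which annotation and strandedness were used, and how multi-mapping reads were counted, is not stated in the labels, so overlapping, antisense and near-identical genes (Rps3a3, the haemoglobin and H2 genes) are uncertain. Symbols and coordinates are from GENCODE M21.

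Counts were analysed in R 4.3.3 with edgeR 4.0.16 (quasi-likelihood test, robust, TMM scaling, filterByExpr with a minimum count of 10 and minimum total of 15). A single coefficient per group was fitted to 12 libraries, leaving 8 residual degrees of freedom. P-values were adjusted by Benjamini-Hochberg over 17812 genes, with a threshold of 0.05. All p-values given without another tool's name are from edgeR. The common biological coefficient of variation was 26.5%. DESeq2 1.42.0 left 1744 genes without an adjusted p. Alternatives also used limma 3.58.1, another scaling, other filters, fewer libraries and each library left out. The first principal component was taken over the 2000 most variable genes and held 48.2% of the variance. The procedure was tested on simulated data.

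Named genes are 12 each way by smallest p (groups without overlap, mean log2 CPM 3 or more), up to 4 members of each described list by smallest p, and 20 fixed genes. A few others (such as Btg2, Hes1, Jag1, Dusp5, Gapdh, Pdgfrl and Rps3a3) were picked with their values in view. The members and lists were chosen with earlier results of these data known. Some items are not reported here. Replicate numbers only name a library, in record order. Chi-square per gene between libraries of a group was 12.3 or more, so none was treated as a duplicate.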

Additional observations from a re-analysis of the deposited data

How the results depend on the processing

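The count of 0 calls was also 0 with RLE factors, without rRNA-like loci, at a minimum count of 50, with the 6 compared or the 9 tumour libraries, and without any single IDH1_R132H tumour or PDGFA tumour 2. It was 146 (70 higher, 76 lower) with DESeq2, 396 (216 and 180) with voom weights, 627 (347 and 280) without a low count filter, and 1 (1 higher, Npw) with limma on the deposited log2 values. Leaving out 1 library gave 0 to 43 calls, 0 to 26 higher and 0 to 17 lower, the highest without PDGFA tumour 3, and leaving out IDH1_R132H tumour 3 with PDGFA tumour 1 gave 1 (1 higher, Rps3a3). Genes at an unadjusted p under 0.05 numbered 1940, against 3518 with voom, 4123 without a filter, 1074 with 6 libraries and 1363 to 3551 with 1 library left out. The cause of these moves was not tested.

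The 24 genes named by smallest p kept their direction in all 16 alternatives and passed an adjusted p of 0.05 in 24 cases with DESeq2, 22 with voom, 22 without a filter and 7 without PDGFA tumour 3. These genes were chosen on the same libraries, which favours that outcome. No gene with a changed sign passed the threshold in any alternative. The lowest adjusted p among them was 0.054 by edgeR, for Mki67 without a filter, where its sign did not change. Of the log2 fold changes that did change sign, the smallest adjusted p was 0.205 by edgeR, for Top2a without PDGFA tumour 3. With 1 library left out they ran from -0.38 to 0.086 for Idh2, -0.19 to 0.82 for Gfap, -0.36 to 0.36 for Egfr, -0.20 to 0.74 for Cd44, -1.12 to 0.49 for Mki67, -0.53 to 1.15 for Top2a, -0.65 to 0.70 for Nes, -0.68 to 0.025 for Rbfox3 and -0.19 to 0.16 for Aif1. Leaving out PDGFA tumour 1 turned Gfap, Egfr, Cd44, Rbfox3 and Aif1, and leaving out PDGFA tumour 3 turned Idh2, Mki67, Top2a and Nes. Without IDH1_R132H tumour 3 and PDGFA tumour 1 together the values were -0.50 for Gfap, -0.40 for Egfr, -0.48 for Cd44 and -0.083 for Trp53. Voom gave -0.072 for Egfr, 0.45 for Top2a and 0.032 for Nes. The deposited log2 values gave 0.25 for Top2a and -0.020 for Aif1, and no filter -0.00487 for Egfr and -0.0287 for Aif1. No paired analysis was possible because the labels give no replicate numbers and the numbers used here follow record order. The median standard error of 0.286 limits which log2 differences could be called.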

Other observations

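Genes of the circadian clock and its output were gathered after their values had been seen, so their counts support nothing. Of 15 tested, 6 had an edgeR unadjusted p under 0.05, all lower in the IDH1_R132H tumours, against 5.86% of all genes. The median log2 fold change was -0.45. Dbp, an output factor of the clock, had 15.1, 17.6 and 19.9 CPM in IDH1_R132H tumours 1 to 3 and 63.9, 43.9 and 27 CPM in PDGFA tumours 1 to 3. Per1, a repressor within the clock, had 33.9, 45.9 and 56.4 CPM against 118, 105 and 88.9 CPM. Neither gene overlapped between the groups. Clock itself had 188 to 223 CPM against 176 to 186 CPM. The labels give no hour of tissue collection, so the part of that hour was not tested.

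Abundant long non-coding RNAs of brain were gathered in the same way, 8 in all, of which 7 had an unadjusted p under 0.05 and a lower level in the IDH1_R132H tumours. Meg3 and Rian, maternally expressed from the imprinted Dlk1-Dio3 region, had 1812, 1932 and 2778 CPM and 382, 383 and 346 CPM in the IDH1_R132H tumours. In the PDGFA tumours Meg3 had 4963, 4691 and 3019 CPM and Rian 890, 648 and 471 CPM. Snhg11 had 662, 608 and 639 CPM against 1731, 1313 and 1165 CPM. Of the 8, 6 had groups that did not overlap, all lower in the IDH1_R132H tumours. Over all genes, 7.25% were lower without overlap and 5.86% were lower at an unadjusted p under 0.05. Neat1 was among the 7 but overlapped, and Malat1, an abundant nuclear RNA of most cells, had a log2 fold change of -0.05. The summed level of the neuronal marker list was 5324, 6328 and 10392 CPM against 11265, 7457 and 5102 CPM, and its part in these levels was not tested.

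PDGFA tumour 1 was near normal brain in some measures and apart from it in others. Its score on the first principal component, 45.5, lay within the 42.3 to 45.8 of the normal brains. Its summed precursor markers were 880 CPM against 930 to 989 CPM. Its summed microglia and macrophage markers were 57.7 CPM against 170 to 285 CPM in the normal brains, and its summed myelin markers 11765 CPM against 3650 to 3699 CPM. Its summed mitosis genes were 175.5 CPM against 22.8 to 36.6 CPM. Npas4, an immediate early gene of neurons, had 222 CPM in that tumour and at most 15.5 CPM in the other 11 libraries.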
